A study of Homo sapiens with 9 samples.

Results

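The comparison described here set human protamine 2 (hPRM2) against the empty vector in HEK293T cells, a human embryonic kidney line. The cells had been transfected with a pcDNA3.1 plasmid that expresses EGFP alone (empty vector) or EGFP fused to full-length hPRM2. Live cells with high EGFP signal were sorted 3 days after transfection, so both groups were transiently transfected cells chosen for strong expression. Total RNA was read with a QuantSeq kit, which primes with oligo(dT) and reads the 3′ ends of transcripts, and each group had 3 of the 9 libraries of the series. Levels were RPKM values (reads per kilobase of gene, scaled to the library total). Genes with at least 1 RPKM in at least 3 of the 6 libraries were taken, which were 13126 of 57338 genes, or 22.9% of the table.

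Protamines are small, arginine-rich proteins that replace most histones in late spermatids, where they pack DNA into a very dense form and transcription stops. PRM2 is made as a longer precursor that is trimmed after it binds DNA, and it is a zinc-binding protein. Somatic cells such as HEK293T do not use protamines, so the comparison asks how the RNA of a cell with active, histone-based chromatin differs once hPRM2 is present.

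The hPRM2 libraries were shallower than those of the control. The reads on genes, estimated from the step that 1 read makes in the RPKM values, were 1270000 to 2650000 in the hPRM2 libraries and 7930000 to 10790000 in the empty vector libraries. A limit of 3 reads, which is what a value of 0 allows by counting error alone, was therefore 1.13 to 2.36 CPM (reads scaled to the library total alone) in hPRM2 and 0.278 to 0.378 CPM in the empty vector. hPRM2 replicate 1 stood apart, with 8856 genes at 1 RPKM or more against 12396 and 13422 in replicates 2 and 3 and 12811 to 13966 in the empty vector. It listed 1623 of the tested genes at 0 although the other 5 libraries all had at least 1 RPKM. Across the tested genes its Pearson correlation with hPRM2 replicates 2 and 3 was 0.650 and 0.680, while these 2 libraries correlated at 0.862 with each other. The main results are therefore also given without it. The labels do not say whether replicates came from separate cultures, so p-values measure the spread between these libraries, which may be technical.

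PRM2 (ENSG00000122304, chr16:11275639-11276480 of GRCh38, minus strand) had the largest log2 difference of all tested genes. It was listed at 0 RPKM in the 3 empty vector libraries and reached 71224, 60050 and 36130 RPKM in hPRM2 replicates 1, 2 and 3 (limma with Benjamini-Hochberg adjustment, adjusted p = 6.04e-06, and 2.35e-05 without hPRM2 replicate 1). The groups did not overlap, and all 3 hPRM2 libraries carried the transcript their label names. Transcripts of the plasmid and of the cell's own gene cannot be told apart. PRM1 (ENSG00000175646, chr16:11280836-11281350), the other human protamine gene, was listed at 0 in all 6 libraries. Of 22 genes for chromatin proteins of spermiogenesis, 8 could be tested, and only PRM2 passed the test, with or without hPRM2 replicate 1. With all 6 libraries, 7 of the 8 had a negative log2 fold change. Outside this list, SPEM1, a gene needed for the maturation of spermatids, rose from 0 in every empty vector library to 22.1, 12.9 and 12.8 RPKM (limma adjusted p = 0.0226), and was chosen after its values were seen. The 2 tested testis germ cell markers were not called, with log2 differences of -0.24 (LDHC) and -1.99 (ODF2).

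Over all tested genes, 179 were higher in hPRM2 (1.36%) and 180 were lower (1.37%) at an adjusted p of at most 0.05 that also changed at least 2-fold. Each of these 359 genes had groups that did not overlap. Of all tested genes, 29.9% had all hPRM2 libraries below the controls and 6.01% had all above. Each of the 359 was also called in the same direction without hPRM2 replicate 1. Without that library, 810 genes were higher (6.17%) and 1619 were lower (12.3%). Most tested genes leaned down, since 75.4% had a negative log2 fold change and the median was -0.72 with or without hPRM2 replicate 1. This shift depended on the scaling. After median-of-ratios rescaling the median was -0.26, with 216 genes higher (1.65%) and 81 lower (0.617%), and after quantile normalization it was -0.16, with 342 higher (2.61%) and 70 lower (0.533%). With median-of-ratios rescaling and without hPRM2 replicate 1, the median was -0.11, with 1156 genes higher (8.81%) and 331 lower (2.52%). The counts also rested on single libraries. Leaving out any 1 of the other 5 libraries left 10 to 40 genes higher and 2 to 44 lower, and a test of unequal variances on each gene's own RPKM values called 0 genes higher and 9 lower, with 2517 at an unadjusted p under 0.05. In these bulk libraries, fewer cells that express a gene and less RNA of it per cell cannot be told apart.

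**Figure D1:**
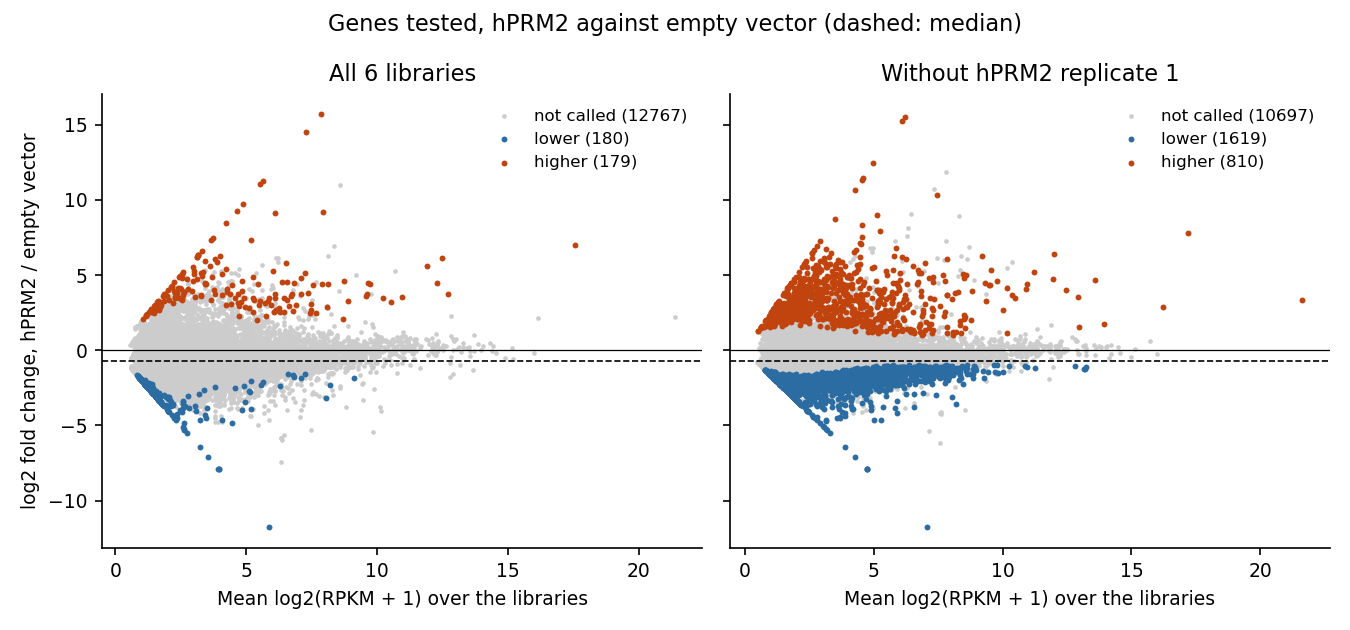
Log2 fold change of hPRM2 over empty vector for each of the 13126 tested genes against its mean log2(RPKM + 1), with all 6 libraries (left, 179 genes higher and 180 lower) and without hPRM2 replicate 1 (right, 810 higher and 1619 lower). Orange points were called higher, blue points lower and grey points were not called, and the dashed line is the median of all tested genes, -0.72 in both panels.

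Among genes with a symbol, the largest rises outside PRM2 included those of small structural RNAs. Several of them are made by RNA polymerase III, which transcribes 5S ribosomal RNA, the 7SL RNA of the signal recognition particle, the 7SK RNA that holds the elongation factor P-TEFb inactive, and RMRP, the RNA of the RNase MRP enzyme that processes ribosomal RNA. BCYRN1 (BC200), a primate RNA with a part derived from Alu repeats, is made by the same polymerase and acts on translation in neurons. Mature forms of most of these RNAs end without a long poly(A) tail. The sequence of RMRP is printed as annotated in GENCODE 29 on GRCh38, since RMRP rose from almost no reads in the empty vector.
RMRP (chr9:35657751-35658018, minus strand): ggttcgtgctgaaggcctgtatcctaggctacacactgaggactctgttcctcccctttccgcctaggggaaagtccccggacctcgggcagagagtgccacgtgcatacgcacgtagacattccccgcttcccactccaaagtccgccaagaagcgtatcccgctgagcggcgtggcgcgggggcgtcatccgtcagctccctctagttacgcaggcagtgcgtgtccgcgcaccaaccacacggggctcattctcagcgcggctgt

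For genes with 1 annotated transcript, RPKM values were turned into CPM and into whole reads. 7SK (ENSG00000202198, chr6:52995620-52995950), chosen after its values were seen, had 38.3, 65.3 and 68.7 CPM in the empty vector and 2715, 4879 and 4514 CPM in hPRM2. Every hPRM2 library was far above every control library. On the log2(RPKM + 1) scale the rise was 6.13 (SE 0.33, limma adjusted p = 0.000743), or 70.2-fold, and 6.40 (SE 0.28, adjusted p = 0.000551) without hPRM2 replicate 1. The counts behind it were 304, 559 and 741 reads in the empty vector and 7201, 6213 and 7260 reads in hPRM2. A second entry that overlaps this locus, RN7SK, was listed at 0 in all 6 libraries.

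RN7SL2, a 7SL gene, followed the same order. It had 56.1, 53.10 and 53.02 CPM in the empty vector and 826, 1690.1 and 1242 CPM in hPRM2, with the lowest value in replicate 1. The difference was 4.47 on the log2 scale (SE 0.28, limma adjusted p = 0.00125), and 4.74 (SE 0.17, adjusted p = 0.000314) without hPRM2 replicate 1. The 5S ribosomal RNA gene RNA5S12 had 44.3, 88.4 and 84.0 CPM in the empty vector against 2743, 15516 and 15378 CPM in hPRM2. Its groups did not overlap either, and hPRM2 replicate 1 was again the lowest of the 3. The log2 difference was 6.97 (SE 0.68, limma adjusted p = 0.0102), and 7.81 (SE 0.30, adjusted p = 0.000335) without hPRM2 replicate 1. 5S genes are near-identical copies of each other, so reads may be split between them and single 5S entries are uncertain. RNA5S9, RNA5SP530, RNA5SP452 and RNA5SP202, all 5S genes or 5S-derived copies, were listed at 0 in every empty vector library. RNA5SP530 had 90, 222 and 228 reads in hPRM2 (limma adjusted p = 0.000387), while RNA5S9 rested on 1, 11 and 20 reads (adjusted p = 0.0224).

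RMRP rose from 0, 3.74 and 0.185 CPM in the empty vector to 35.1, 398 and 320.2 CPM in hPRM2. These stood for 0, 32 and 2 reads against 93, 507 and 515 reads. The groups did not overlap, but the spread in both was wide, and the log2 difference was 9.19 (SE 1.78, limma adjusted p = 0.0477) and 10.31 (SE 2.10, adjusted p = 0.0388) without hPRM2 replicate 1. BCYRN1 was abundant in all libraries, with 12181, 9419 and 13012 CPM in the empty vector and 10157, 130430.0 and 107010.0 CPM in hPRM2. Replicate 1 lay within the control range while replicates 2 and 3 lay far above it. With all 6 libraries BCYRN1 therefore did not pass the test (log2 difference 2.19, SE 0.92, limma adjusted p = 0.197). It was 3.37 higher without hPRM2 replicate 1 (SE 0.16, adjusted p = 0.000712). BCYRN1 and RNA5S12 were named after their values were seen, as was RN7SL2.

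Other small RNAs separated hPRM2 replicate 1 from replicates 2 and 3 in the same way and were chosen after their values were seen. The Y RNA gene RNY1, whose product binds the Ro60 protein, had 133, 154 and 50 reads in the empty vector and 0, 207 and 163 reads in hPRM2. RNU6ATAC, the U6atac RNA of the minor spliceosome, had 24.2, 10.2 and 11.1 CPM in the empty vector and 2.26, 373 and 352 CPM in hPRM2. The vault RNA gene VTRNA1-1 had 0.883, 1.52 and 5.01 CPM against 0.377, 23.6 and 18.6 CPM. None of these 3 passed the test with all 6 libraries, and all 3 were higher without hPRM2 replicate 1, by 3.52, 4.69 and 3.47 on the log2 scale (limma adjusted p = 0.0243, 0.00307 and 0.0311). The minor spliceosome RNA gene RNU4ATAC, made by RNA polymerase II, was higher only without that library too, by 1.77 (SE 0.23, adjusted p = 0.0127). RNU11, another RNA of the minor spliceosome, had 15.892, 18.006 and 29.574 CPM in the empty vector and 0, 19.632 and 22.381 CPM in hPRM2. These stood for 126, 154 and 319 reads against 0, 25 and 36 reads. RNU11 did not pass the test with all 6 libraries (log2 difference -4.02, SE 3.15, limma adjusted p = 0.436). Without hPRM2 replicate 1 it hardly differed (0.041, SE 0.28, adjusted p = 0.925).

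Of 13 tested RNA polymerase III transcripts, 4 were higher (RNA5S9, RMRP, RNA5S12 and RN7SL2) and 0 were lower, where 1.36% and 1.37% of all tested genes were called. The expressed 7SK entry, also called higher, was not among these 13. RNA5S9 was at 0 in every empty vector library and passed the filter only through hPRM2, so it could not have been called lower. The list's median log2 fold change was 2.60 beside -0.72 for all tested genes. Without hPRM2 replicate 1, 8 were higher and 0 lower with a median of 5.93, where 6.17% of all tested genes were higher and 12.3% lower. After median-of-ratios rescaling, 3 were higher and 0 lower with all 6 libraries, and 9 and 0 without hPRM2 replicate 1. Of all tested genes, 1.65% and 8.81% were higher in these 2 fits. The list's medians stayed positive in both (3.08 with all 6 libraries and 6.54 without hPRM2 replicate 1). The snRNAs made by RNA polymerase II showed no such pattern over 6 tested genes, with 0 called and a median of -3.33 that turned to 0.44 without hPRM2 replicate 1.

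**Figure D2:**
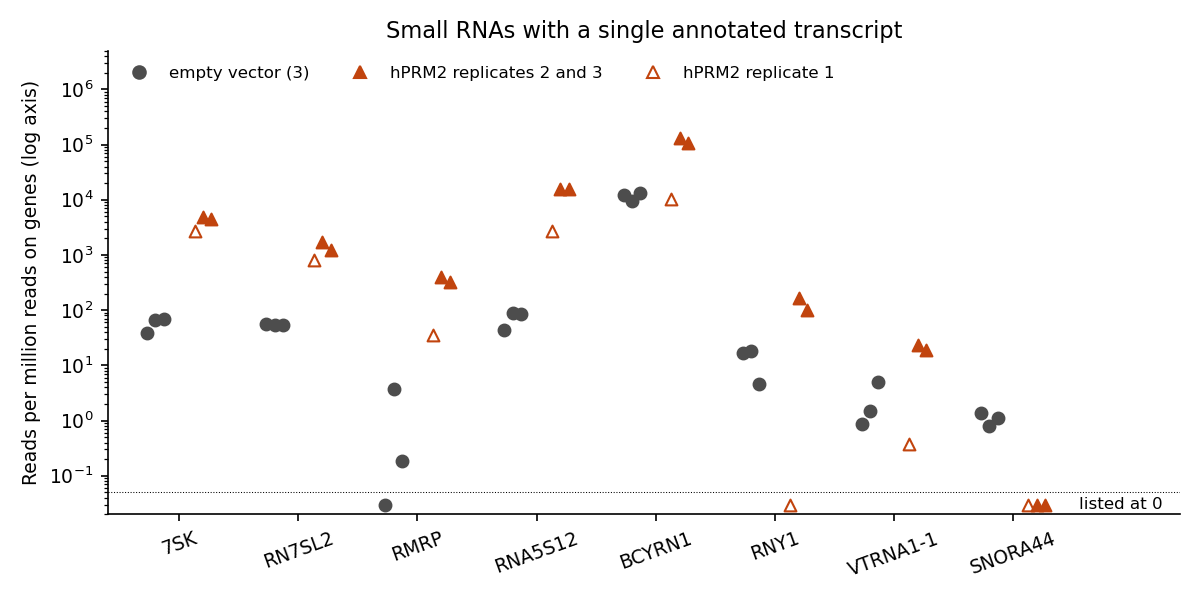
CPM, reads scaled to the library total, on a log axis, for 8 small RNAs with 1 annotated transcript in the 3 empty vector libraries (grey circles), hPRM2 replicate 1 (open triangles) and hPRM2 replicates 2 and 3 (filled triangles). Symbols below the dotted line were listed at 0. 7SK, RN7SL2, RMRP and RNA5S12 were above the controls in all 3 hPRM2 libraries, BCYRN1, RNY1 and VTRNA1-1 only in replicates 2 and 3, and SNORA44 was listed at 0 in all 3.

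Genes for the proteins that bind 7SK, chosen after their values were seen, moved in both directions. HEXIM1, which inhibits P-TEFb together with 7SK, had 13.44, 13.997 and 5.20 RPKM in the empty vector and 36.5, 74.1 and 45.5 RPKM in hPRM2. Its groups did not overlap, yet the log2 difference of 2.20 (SE 0.54) did not pass the test (limma adjusted p = 0.0763), and it passed without hPRM2 replicate 1 (2.42, SE 0.52, adjusted p = 0.0343). Its paralogue HEXIM2 went the other way, from 12.2, 22.1 and 13.1 RPKM to 0, 0 and 1.34 RPKM (log2 difference -3.62, SE 0.62, adjusted p = 0.0392, and -3.41 with adjusted p = 0.0218 without hPRM2 replicate 1). LARP7 and MEPCE, which stabilize and cap 7SK, and CDK9 and CCNT1, the P-TEFb subunits, did not pass the test, with log2 differences of -0.68, -1.53, -0.28 and -1.31, and -0.33, -1.28, 0.22 and -1.64 without hPRM2 replicate 1.

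Small nucleolar RNAs, which guide chemical modification of ribosomal RNA, held the largest falls among non-coding genes with a symbol. SNORA44, SNORD83B and SNORA24 were listed at 0 in all 3 hPRM2 libraries. SNORA44 had 11, 7 and 12 reads in the empty vector, or 1.37, 0.794 and 1.11 CPM (limma adjusted p = 0.000954). All 3 values lay below the limit of 3 reads in hPRM2 replicates 2 and 3, so its absence there was not detectable at this depth. SNORD83B had 12, 2 and 16 reads and SNORA24 8, 4 and 26 reads in the empty vector. The same limit held for SNORD83B in all 3 empty vector libraries and for SNORA24 in 2 of them. Of 25 tested small nucleolar and Cajal body RNAs, 0 were higher and 3 lower, where 1.36% of all tested genes were higher and 1.37% lower. The list's median of -0.99 was -0.29 without hPRM2 replicate 1. Of the other large falls, RN7SL689P, a 7SL-derived copy, had 15 reads in each empty vector library, below the 3-read limit of hPRM2 replicate 2, and was at 0 in hPRM2. MTATP8P1, a nuclear copy of a mitochondrial gene, had 1, 15 and 2 reads, all below the 3-read limits of hPRM2 replicates 2 and 3, and was also at 0. Reads of such copies may be counted on their near-identical source genes or the reverse.

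By annotated class, the calls fell unevenly. Protein-coding genes made up 67 of the 179 genes that rose (37.4%) and 121 of the 180 that fell (67.2%). Of 11205 tested protein-coding genes, 0.598% were higher and 1.08% lower. Genes annotated as antisense transcripts were higher in 38 of 533 (7.13%) and lower in 20, and lincRNA genes were higher in 27 of 460 (5.87%) and lower in 14. Leaving out hPRM2 replicate 1, these shares of higher genes were 24.95% and 24.8%, beside 3.36% for protein-coding genes. The strand used in counting is not given in the sources used here, so reads of an antisense gene and of its partner cannot be told apart. Processed pseudogenes were higher in 12 of 208 and lower in 7. H3C9P, a histone H3 pseudogene chosen after its values were seen, was the highest riser among them, with 1, 11 and 1 reads in the empty vector and 151, 127 and 128 reads in hPRM2 (log2 difference 7.32, SE 0.72, limma adjusted p = 0.0102).

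The classes also shifted as shares of all reads on genes, computed as RPKM multiplied by effective gene length, the length left after a mean fragment is taken off. Protein-coding genes held 96.3%, 96.5% and 96.4% of reads in the empty vector and 94.4%, 79.8% and 82.6% in hPRM2. All 3 hPRM2 libraries were below the controls, replicate 1 by much the least. The mean difference was -10.8 percentage points (exact permutation test, two-sided, p = 0.1, which 3 against 3 cannot go below, adjusted p = 0.138 over 11 classes), and -15.2 points without hPRM2 replicate 1 (exact p = 0.2, the smallest that 2 against 3 allows). 5S and other rRNA genes rose from 0.0172% ± 0.00452 (SD, n = 3) to 0.224%, 1.33% and 1.35%. Miscellaneous small RNAs, which include 7SK and 7SL, rose from 0.0226% ± 0.00267 (SD, n = 3) to 0.326%, 0.692% and 0.606%. In both of these classes the 2 groups were apart (exact permutation test, p = 0.1, adjusted p = 0.138). BCYRN1 alone held 1.02% ± 0.157 (SD, n = 3) of reads in the empty vector and 0.806%, 10.7% and 9.02% in hPRM2, and its groups overlapped (exact permutation test, p = 0.4). Long non-coding genes went from 1.05% ± 0.166 (SD, n = 3) to 1.45%, 3.39% and 2.79%, and pseudogenes from 0.815% ± 0.0548 (SD, n = 3) to 1.86%, 1.56% and 1.53%. Measured as shares of summed RPKM, which gives short genes such as BCYRN1 more weight, the long non-coding and pseudogene differences turned negative.

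Among protein-coding genes, SETDB2, a member of the family of histone H3 lysine 9 methyltransferases, had the largest rise after PRM2 of those detected in every control library. SETDB2 (ENSG00000136169, chr13:49444374-49495003) had 18.2, 40.4 and 19.96 RPKM in the empty vector and 382, 1573 and 1256 RPKM in hPRM2. The lowest hPRM2 value was several times the highest control value. The log2 difference was 5.16 (SE 0.61, limma adjusted p = 0.0157), or 35.7-fold, and 5.78 (SE 0.39, adjusted p = 0.00172) without hPRM2 replicate 1. CYB5D2, which codes for a haem-binding protein of the cytochrome b5 type, had 171, 192 and 149 RPKM in the empty vector and 1202, 7566 and 6424 RPKM in hPRM2. It was 4.51 higher on the log2 scale (SE 0.68, limma adjusted p = 0.0297), and 5.35 (SE 0.19, adjusted p = 0.000314) without hPRM2 replicate 1. TPRA1, a membrane protein gene, was listed at 0 in all 3 empty vector libraries and had 151, 65.9 and 38.9 RPKM in hPRM2 (adjusted p = 0.0113).

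The other large rises started from low levels. NEK8, a kinase of primary cilia, went from 1.71, 2.49 and 0.418 RPKM to 23.4, 123 and 106 RPKM (log2 difference 4.85, SE 0.78, limma adjusted p = 0.0341). OTUD6A, a deubiquitinase gene with 1 annotated transcript, had 6, 21 and 2 reads in the empty vector and 68, 145 and 139 reads in hPRM2 (4.76, SE 0.74, adjusted p = 0.0327). SEPTIN1, a cytoskeletal GTPase, went from 8.64, 2.51 and 4.91 RPKM to 115, 185 and 133 RPKM (4.60, SE 0.50, adjusted p = 0.0115). For each of these 3 genes the groups lay far apart and the hPRM2 values were lowest in replicate 1. LCK, a Src-family kinase of T cells, was instead highest in replicate 1, with 0, 2.08 and 3.03 RPKM in the empty vector and 70.6, 45.3 and 33.3 RPKM in hPRM2 (4.39, SE 0.70, adjusted p = 0.0334). CSKMT, the methyltransferase of citrate synthase, had the same order, with 484, 154 and 100.4 RPKM in hPRM2 against 5.95 to 10.03 RPKM in the empty vector (4.38, SE 0.63, adjusted p = 0.0268). RNF222, a RING finger gene, completed the 10 largest rises (5.15, SE 0.85, adjusted p = 0.0368). All of these 6 genes passed the test without hPRM2 replicate 1 as well and differed by 3.73 (CSKMT) to 5.98 (RNF222) on the log2 scale.

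Of the 179 genes that rose, 63 were below 1 RPKM in all 3 empty vector libraries and 35 were listed at 0 in all 3. For those with 1 annotated transcript, 93 genes, the median was 1 to 9 reads in the empty vector libraries and 45 to 87 reads in the hPRM2 libraries. The rises therefore rested on more reads in hPRM2 although its libraries were the shallower ones.

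**Figure D3:**
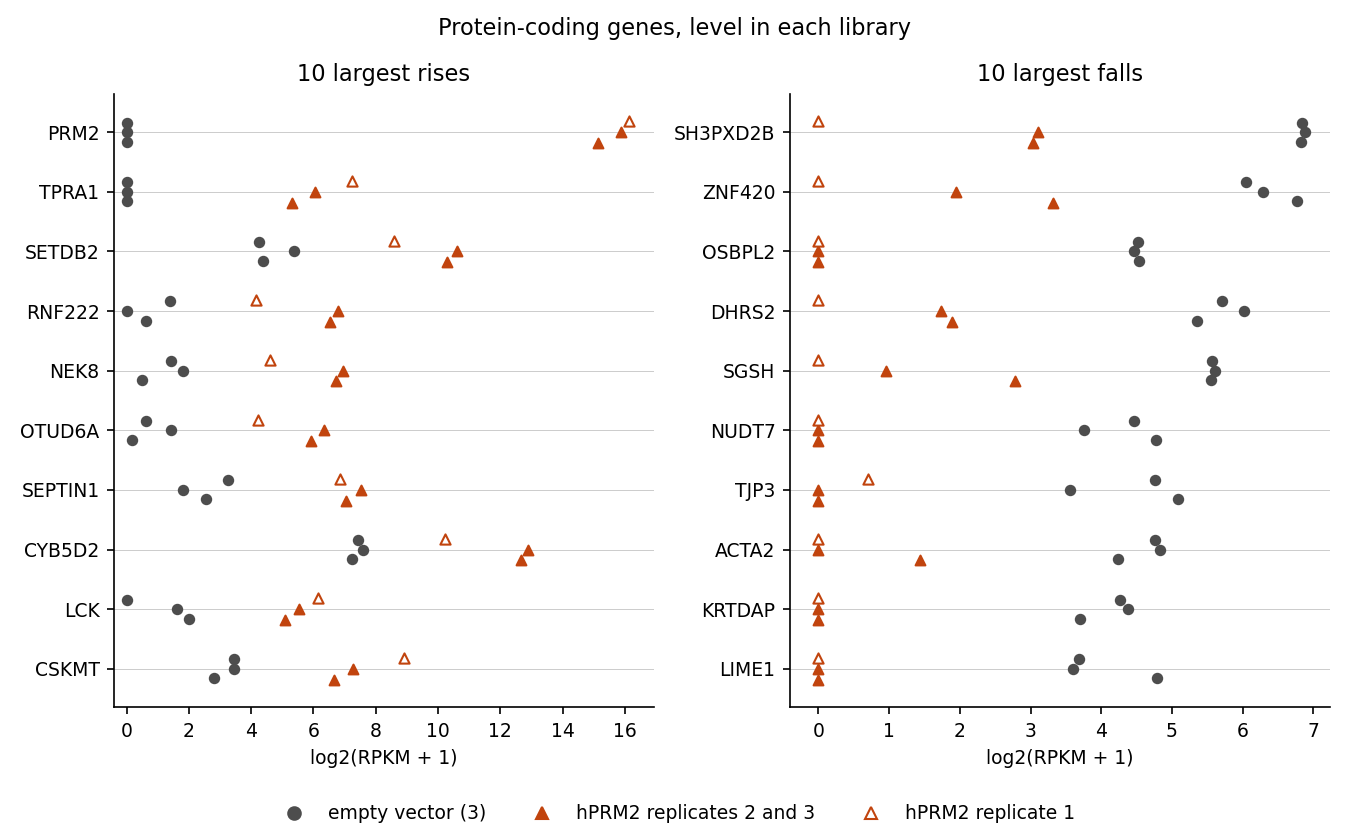
Level, as log2(RPKM + 1), of the 10 protein-coding genes with the largest rise (left) and the largest fall (right) in each empty vector library (grey circles), hPRM2 replicate 1 (open triangles) and hPRM2 replicates 2 and 3 (filled triangles), offset vertically so that equal values can be seen. The groups do not overlap for any of the 20 genes, and 4 of the 10 falls (OSBPL2, NUDT7, KRTDAP and LIME1) were listed at 0 in all 3 hPRM2 libraries.

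The largest fall among protein-coding genes with a symbol was that of SH3PXD2B, an adaptor of podosomes, which are actin-rich structures that digest matrix. SH3PXD2B had 113, 117 and 113 RPKM in the empty vector and 0, 7.57 and 7.16 RPKM in hPRM2. The control values were nearly equal and all hPRM2 values were far below them. The log2 difference was -4.81 (SE 0.86, limma adjusted p = 0.0414), and -3.79 (SE 0.26, adjusted p = 0.00188) without hPRM2 replicate 1. ZNF420, a KRAB zinc finger gene, fell from 65.0, 77.2 and 108 RPKM to 0, 2.87 and 8.97 RPKM (-4.61, SE 0.85, adjusted p = 0.0428). DHRS2, a short-chain dehydrogenase, fell from 51.2, 63.9 and 39.7 RPKM to 0, 2.32 and 2.70 RPKM (-4.49, SE 0.67, adjusted p = 0.0292). SGSH, a lysosomal enzyme that breaks down heparan sulfate, fell from 46.6, 48.0 and 46.0 RPKM to 0, 0.930 and 5.86 RPKM (-4.34, SE 0.77, adjusted p = 0.0413). In these 4 genes the 0 came from hPRM2 replicate 1, and without it each remained lower, by -3.88 to -3.72 for ZNF420, DHRS2 and SGSH.

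TJP3, a tight junction scaffold, and ACTA2, smooth muscle actin, fell with a 0 in 2 of the 3 hPRM2 libraries. TJP3 went from 26.1, 10.8 and 33.0 RPKM to 0.622, 0 and 0 RPKM (log2 difference -4.24, SE 0.64, limma adjusted p = 0.0306). ACTA2 went from 26.1, 27.5 and 17.9 RPKM to 0, 0 and 1.70 RPKM (-4.13, SE 0.64, adjusted p = 0.0323). OSBPL2, a lipid transfer protein gene, NUDT7, a peroxisomal hydrolase of coenzyme A, KRTDAP, a keratinocyte gene, and LIME1, an adaptor that binds LCK, were listed at 0 in all 3 hPRM2 libraries. Their empty vector levels were 21.1 to 22.1, 12.6 to 26.4, 11.99 to 19.8 and 11.2 to 26.6 RPKM, and each passed the test with and without hPRM2 replicate 1 (adjusted p = 0.0130, 0.0218, 0.0218 and 0.0268 with all 6 libraries). Zeros in hPRM2 were common among the falls. Of the 180 genes that fell, 112 were listed at 0 in all 3 hPRM2 libraries, and for 34 of these the mean of the empty vector was at or below 2.36 CPM, the 3-read limit of the shallowest hPRM2 library. For 59 of the 112, all 3 empty vector libraries were above that limit. CPM of genes with several transcripts rests on a mean transcript length, so this count is less certain for them. Among the 43 of the 112 with 1 annotated transcript, only 6 had all 3 empty vector libraries above it. The 48 falls with 1 annotated transcript had a median of 14 to 26 reads in the empty vector libraries. Many of these zeros are therefore weakly supported at the depth of hPRM2.

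The annotated transcripts of rising and falling protein-coding genes differed in how long their runs of A were. The longest run of A in any annotated transcript had a median of 13 bases in the 67 genes that rose, 6 bases in the 121 that fell and 8 bases in the 11017 not called. A run of at least 8 A was present in 79.1%, 35.5% and 52.2% of these genes, and a run of at least 15 A in 40.3%, 4.96% and 17.1%. The shares with at least 8 A without hPRM2 replicate 1 were 78.0% of 377 genes that rose, 39.4% of 1482 that fell and 53.2% of those not called. The genes that rose also had more annotated transcripts (a median of 9, against 6 and 8), in which a long run can occur by number alone, while the median of mean transcript length was 1431, 1402 and 1585 bases. Among tested genes of any class with 1 transcript, a run of at least 8 A was present in 55.9% of 93 that rose, 16.7% of 48 that fell and 33.0% of 1535 not called. SETDB2 and CSKMT held runs of 16 A, CYB5D2 and RNF222 of 15 and NEK8 of 30, whereas SEPTIN1 held 6 and PRM2 and LCK held 5. Whether reads start at these runs was not tested, since positions of reads were not analysed here. These shares are descriptions with no test.

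Gene lists on chromatin showed few calls with all 6 libraries, where 1.36% of all tested genes were higher and 1.37% lower. Of 28 tested replication-dependent histone genes, which are transcribed in S phase and whose mRNAs normally end in a stem-loop in place of a poly(A) tail, 1 was higher (H2BC6) and 1 lower (H2AC13). H2BC6 had 0, 0 and 1.55 RPKM in the empty vector and 12.9, 28.9 and 16.2 RPKM in hPRM2 (log2 difference 3.82, SE 0.66, limma adjusted p = 0.0395). H2AC13 had 8, 22 and 15 reads in the empty vector, or 1.009, 2.573 and 1.391 CPM. It was listed at 0 in hPRM2 (adjusted p = 0.0385). Its values in empty vector replicates 1 and 3 lay below the 3-read limits of hPRM2 replicates 2 and 3. At this depth its absence there rests on empty vector replicate 2 alone, the only value above these limits. In the fit without hPRM2 replicate 1, 6.17% of all tested genes were higher and 12.3% lower. There the list held 5 higher genes (H2BC6, H2BC5, H4C5, H2BC15 and H2BC21) and 4 lower ones (H2AC13, H4C3, H1-4 and H4C8), named after their values were seen. The most abundant of these, H4C3, had 2797, 2636 and 1944 CPM in the empty vector and 521, 729.6 and 1449 CPM in hPRM2. The list's median was -0.31 with all 6 libraries and 0.23 without hPRM2 replicate 1, so it had no fixed direction.

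Among 22 tested genes of H3 lysine 9 methylation and heterochromatin, SETDB2 was the only one called with all 6 libraries, and the list's median was -0.47 (2 higher and 2 lower without hPRM2 replicate 1). Of 29 histone chaperone genes, 0 were higher and 1 was lower (2 and 2 without hPRM2 replicate 1), and the gene called was YEATS4, which recognises acetylated histones in remodelling complexes. YEATS4 had 258, 306 and 219.9 RPKM in the empty vector and 72.9, 58.3 and 87.3 RPKM in hPRM2, with no overlap (log2 difference -1.83, SE 0.31, limma adjusted p = 0.0385, and -1.84 without hPRM2 replicate 1). After median-of-ratios rescaling of all 6 libraries, 0 histone chaperone genes were called, YEATS4 included. No polyadenylated histone variant (11 tested), gene of condensin, cohesin or lamina (39), enhancer mark enzyme (28) or DNA methylation gene (15) was called with all 6 libraries. In the fit without hPRM2 replicate 1, 0 histone variants were higher and 3 lower, 0 genes of condensin, cohesin or lamina were higher and 4 lower, and 2 enhancer mark enzymes were higher and 2 lower. Of all tested genes, 6.17% were higher and 12.3% lower in that fit. DNMT1, the maintenance DNA methyltransferase, had 1492 to 1795 RPKM in the empty vector and 853 to 1511 RPKM in hPRM2 (log2 difference -0.64, SE 0.29, adjusted p = 0.212). Without hPRM2 replicate 1 both other libraries were below the controls and DNMT1 was 1.87-fold lower (-0.90, SE 0.16, adjusted p = 0.0245), short of the 2-fold threshold. Leaving out hPRM2 replicate 1, 0 of the 15 DNA methylation genes were higher and 2 lower. In that fit MBD1, which binds methylated CpG, and TET1, which oxidizes 5-methylcytosine, were lower by -2.42 and -1.55 (limma adjusted p = 0.0285 and 0.0483). Both were named after their values were seen. Of the abundant members of these lists, TDG, CREBBP, BRD2, SMC4, H3-3A and H2AZ1 did not pass both thresholds in either fit. Their log2 differences lay between -1.82 (TDG) and 0.22 (BRD2) with all 6 libraries. TOP2A, an abundant member of the condensin, cohesin and lamina list, was lower without hPRM2 replicate 1 (-1.85, SE 0.28, limma adjusted p = 0.0183).

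Cell cycle genes were mostly lower but rarely called with all 6 libraries. Of 56 genes of G1 and S phase, 0 were called and the median was -0.86, and of 51 genes of G2 and M phase, 0 were higher and 1 lower with a median of -0.99, beside -0.72 for all tested genes. UBE2C, the ubiquitin-conjugating enzyme of the anaphase-promoting complex, had 929, 996 and 1217 RPKM in the empty vector and 293, 205 and 417 RPKM in hPRM2. Its groups did not overlap (log2 difference -1.83, SE 0.33, limma adjusted p = 0.0413, and the same difference without hPRM2 replicate 1, adjusted p = 0.0256). Without that library, 1 gene of G1 and S phase was higher and 16 lower, and 0 genes of G2 and M phase were higher and 13 lower, where 12.3% of all tested genes were lower. After median-of-ratios rescaling of all 6 libraries, 0 genes of either list were called, UBE2C included. With median-of-ratios rescaling and without hPRM2 replicate 1, 2 genes of G1 and S phase were higher and 2 lower, and 1 gene of G2 and M phase was higher and 2 were lower. The medians of both lists were negative under each scaling.

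Several cell cycle genes, all but TOP2A chosen after their values were seen, had higher levels in hPRM2 replicate 1 than in the other 2 hPRM2 libraries. PCNA, the sliding clamp of DNA replication, had 165, 191 and 192 RPKM in the empty vector and 146, 30.2 and 63.1 RPKM in hPRM2. FOXM1, a transcription factor of G2 and M genes, had 41.3, 38.8 and 38.8 RPKM against 39.7, 12.8 and 11.96 RPKM. TOP2A, the DNA topoisomerase of dividing cells, had 725, 627 and 990.3 RPKM against 943, 175 and 256 RPKM. In each of them replicate 1 was near or within the control range and the other 2 were well below it. Without replicate 1 they were lower by -2.04, -1.60 and -1.85 (limma adjusted p = 0.0238, 0.0257 and 0.0183). CDK1, the kinase that starts mitosis, was below the controls in all 3, with 414, 318 and 143 RPKM in the empty vector and 71.4, 11.3 and 30.5 RPKM in hPRM2, yet did not pass the test with all 6 libraries (-3.14, SE 0.71, adjusted p = 0.0652, and -3.76 with adjusted p = 0.0201 without replicate 1). MCM5, CDT1, E2F1, ORC3, PLK1 and PKMYT1, which act in replication licensing, S-phase entry and mitotic entry, were also called lower only without replicate 1, by -3.66 (ORC3) to -1.23 (PLK1). For MCM5, CDT1, E2F1 and PKMYT1 all 3 hPRM2 libraries were below the controls. E2F1 was not highest in replicate 1, with 5.86, 6.27 and 3.86 RPKM in hPRM2.

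Of 25 tested p53 targets, 0 were higher and 2 lower, and the median was -1.04. Of all tested genes, 1.37% were lower and the median was -0.72. AEN, a p53-induced nuclease, had 62.4, 80.7 and 63.9 RPKM in the empty vector and 12.2, 11.8 and 12.6 RPKM in hPRM2 (log2 difference -2.40, SE 0.37, limma adjusted p = 0.0320, and -2.40 without hPRM2 replicate 1). SESN2, a sestrin that answers to p53 and to amino acid shortage, had 83.9, 117 and 118 RPKM against 19.9, 21.1 and 20.6 RPKM (-2.30, SE 0.34, adjusted p = 0.0297, and -2.28). The 3 hPRM2 libraries, replicate 1 included, were nearly equal for both genes and far below the controls. After median-of-ratios rescaling of all 6 libraries neither was called. Without hPRM2 replicate 1 and with the deposited scaling, 2 p53 targets were higher and 7 lower, where 12.3% of all tested genes were lower. Without that library and after median-of-ratios rescaling, 2 were higher and 4 lower, where 2.52% of all tested genes were lower. Of 29 genes of the unfolded protein and integrated stress responses, 0 were higher and 1, SESN2, was lower, with a median of -0.99. Without hPRM2 replicate 1, 1 was higher and 9 were lower, among them XBP1, CHAC1 and DDIT4, named after their values were seen. XBP1, a transcription factor of the unfolded protein response, had 151, 141 and 175 RPKM in the empty vector and 62.9, 42.0 and 49.2 RPKM in hPRM2. Its groups did not overlap, and it fell just short of the threshold with all 6 libraries (-1.59, SE 0.32, adjusted p = 0.0524) and passed it without replicate 1 (-1.74, SE 0.24, adjusted p = 0.0139). No immediate early gene (24 tested), interferon-stimulated gene (18), DNA damage gene (36), BCL2 family or caspase gene (25), heat shock gene (35) or proteasome gene (42) was called with all 6 libraries. Their medians were -1.01, -0.84, -0.74, -0.72, 0.17 and -0.35 in the same order, beside -0.72 for all tested genes. In the fit without hPRM2 replicate 1, where 6.17% of all tested genes were higher and 12.3% lower, 0 immediate early genes were higher and 6 lower, 1 interferon-stimulated gene was higher and 1 lower, and 0 DNA damage genes were higher and 6 lower. In that fit 1 BCL2 family or caspase gene was higher and 5 lower, 2 heat shock genes were higher and 2 lower, and 0 proteasome genes were higher and 1 lower. With median-of-ratios rescaling as well, where 8.81% of all tested genes were higher and 2.52% lower, 2 BCL2 family or caspase genes were higher and 0 lower although the list's median was -0.37, and 8 heat shock genes were higher and 0 lower. The immediate early genes included ATF3, a stress-induced transcription factor named after its values were seen, with 207, 170.3 and 98.3 RPKM in the empty vector and 9.56, 30.5 and 31.6 RPKM in hPRM2 (-2.25, SE 0.37, adjusted p = 0.0215 without replicate 1).

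Genes of protein synthesis and energy metabolism had few calls with all 6 libraries, and the sign of several of their medians depended on the scaling. No gene was called among 79 cytosolic ribosomal protein genes, whose median was 0.24 with all 6 libraries, 0.80 after median-of-ratios rescaling and -0.37 after quantile normalization. In them the counts moved with the scaling as well, to 8 higher and 0 lower in the first case and 0 higher and 5 lower in the second. RPS29 had 71244, 67550.0 and 71608 RPKM in the empty vector and 70878, 56295 and 60710.0 RPKM in hPRM2, and RPL39 32754 to 36809 against 35755 to 40902 RPKM. Both had overlapping groups. RPS7, RPL26 and RPS26 were higher and RPL7A was lower without hPRM2 replicate 1, and all 4 were named after their values were seen. Low entries such as RPS26, at 0 to 0.517 RPKM in the empty vector, share sequence with processed copies and are uncertain. Of 79 nuclear-coded respiratory chain genes 0 were called, with a median of 0.11 that was -0.28 without hPRM2 replicate 1 (0 higher and 3 lower), 0.67 after median-of-ratios rescaling and -0.04 after quantile normalization. With all 6 libraries no gene was called among 77 mitochondrial ribosomal protein genes (median -0.50), 38 translation factors (-0.22) or 77 splicing factors (-0.25). Leaving out hPRM2 replicate 1, 6.17% of all tested genes were higher and 12.3% lower. In that fit 1 mitochondrial ribosomal protein gene was higher and 11 lower, and 4 translation factors were higher and 3 lower. Of the splicing factors, 2 were higher and 9 lower. With median-of-ratios rescaling in addition, these counts became 2 and 2, 6 and 0, and 13 and 0, where 8.81% of all tested genes were higher and 2.52% lower. Of 82 nucleolar and pre-ribosomal RNA processing genes, 2 were higher and 0 lower with all 6 libraries, where 1.36% of all tested genes were higher and 1.37% lower. Without hPRM2 replicate 1, 4 were higher and 4 lower, where the shares of all tested genes were 6.17% and 12.3%. RRP12, a ribosome export factor, had 55.5, 85.1 and 49.3 RPKM against 320.2, 656 and 653 RPKM (log2 difference 3.05, SE 0.41, limma adjusted p = 0.0226, and 3.39 without hPRM2 replicate 1). PPAN, a biogenesis factor of the large ribosomal subunit, had 22.7, 26.5 and 21.6 RPKM against 130.3, 118 and 105 RPKM (2.27, SE 0.33, adjusted p = 0.0278, and 2.19).

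Among transcription genes, POLR2B, the second largest subunit of RNA polymerase II, was the only one of 48 called with all 6 libraries. POLR2B had 72.3, 95.1 and 84.2 RPKM in the empty vector and 267, 649.8 and 629 RPKM in hPRM2, with no overlap (log2 difference 2.51, SE 0.42, limma adjusted p = 0.0374, and 2.92 without hPRM2 replicate 1). Of 315 tested zinc finger genes of the ZNF series, which code mostly for DNA-binding repressors, 0 were higher and 6 lower (1.37% of all tested genes were lower), and the median of -0.69 was close to that of all tested genes. ZNF420 and ZNF282 were the largest of these falls, and ZNF282 went from 35.3, 41.4 and 50.7 RPKM to 0.217, 1.81 and 6.80 RPKM (-3.85, SE 0.75, adjusted p = 0.0496). Without hPRM2 replicate 1, 18 ZNF genes were higher and 38 lower, where 6.17% of all tested genes were higher and 12.3% lower. The list's counts and median turned with the scaling of all 6 libraries. They were 1 higher and 0 lower (median -0.30) after median-of-ratios rescaling and 8 higher and 3 lower (median 0.19) after quantile normalization. JPX, a long non-coding RNA of the X chromosome, was the only one of 14 abundant lncRNAs called, with 39.8, 39.5 and 19.9 RPKM against 138, 312 and 151 RPKM (2.53, SE 0.47, adjusted p = 0.0430, and 2.74 without hPRM2 replicate 1). NEAT1, the scaffold of paraspeckles, was named after its values were seen and had 3.24, 3.80 and 0.969 RPKM against 210.4, 59.1 and 19.9 RPKM. NEAT1 did not pass the test with all 6 libraries (limma adjusted p = 0.0579), but was 3.37 higher without replicate 1 (adjusted p = 0.03003).

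Markers of cell types were compared between the groups as a check of the material. Of 21 tested HEK293T markers, 1 was higher and 0 lower, and the median was -0.73. The gene called was KRT8, a keratin of simple epithelia, with 20.8, 15.8 and 27.5 RPKM in the empty vector and 139.6, 235 and 162 RPKM in hPRM2 (log2 difference 3.01, SE 0.39, limma adjusted p = 0.0224, and 3.16 without hPRM2 replicate 1). Markers of other cells were nearly absent. Of 35 blood cell markers 21 were listed at 0 in all 6 libraries and 5 could be tested, with a summed level of 9.14 to 33.7 RPKM in the empty vector and 22.4 to 23.3 RPKM in hPRM2. Of 20 testis germ cell markers 14 were at 0 in all 6 and 2 could be tested, with sums of 26.9 to 40.0 and 12.2 to 33.0 RPKM. Of 18 hepatocyte and muscle markers 11 were at 0 in all 6, with sums of 3.29 to 70.7 and 4.28 to 84.5 RPKM. No marker of these 3 lists was called with all 6 libraries, and SLC4A1, the anion exchanger of red cells, was higher only without hPRM2 replicate 1, from 0 to 1.19 RPKM to 2.16 to 16.3 RPKM.

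The number of detected genes did not differ beyond what 3 libraries can show. Genes with at least 1 RPKM numbered 13443.3 ± 585 in the empty vector and 11558 ± 2396 in hPRM2 (SD, n = 3 each), a difference of -1885 (two-sided exact permutation test, p = 0.2). The difference was -534 without hPRM2 replicate 1 (exact p = 0.4). At a limit of 10 RPKM, the 5720, 6276 and 6706 genes of hPRM2 were all below the 6993 to 7429 of the empty vector (exact p = 0.1, the smallest possible).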

How the data were processed

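RNA of HEK293T cells was compared between 3 hPRM2 and 3 empty vector libraries, grouped by their titles. The authors counted reads on genes (hg38, with FastQC, cutadapt, STAR and Salmon per the submitters' processing notes, versions and annotation release not given in the sources used here), removed mitochondrial genes and deposited RPKM values. Their methods describe these as counts divided by the library total and by gene length in kilobases. The table used here holds RPKM without counts, so no count model was fitted. Of the identifiers, 98.6% had a symbol in the name table and 99.4% were found in GENCODE 29, which may not be the authors' annotation.

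Values were tested as log2(RPKM + 1) in R 4.3.3 with limma 3.58.1 (lmFit, eBayes with trend and robust) and Benjamini-Hochberg adjustment over all tested genes. Genes needed at least 1 RPKM in at least 3 of the 6 libraries, and a call needed an adjusted p of at most 0.05 and a fold of at least 2. Fold changes are on the log2(value + 1) scale, which understates changes of genes at low RPKM. This does not hold for short RNAs, where 1 read can stand for many RPKM (94.2 for RNA5S9 in hPRM2 replicate 1). Their large fold changes can rest on few reads, and 1 read can pass the 1 RPKM limit. The code of the fit was tested on simulated data. CPM is RPKM multiplied by an effective length in kilobases, and reads were estimated from the repeated lowest step of genes with 1 transcript. The effective length is the mean length of a gene's GENCODE 29 transcripts less the mean fragment length. Fragments were taken as 250 bases (SD 25) and cut off at the transcript length. The effective length of short RNAs is therefore far below their own length. At a tolerance of 0.05 reads, 86.9% to 89.9% of values in these libraries came out whole, too few to run a count test. Limits of 3 reads cover counting error only. Detected genes and class shares were compared between groups by exact permutation tests (two-sided) in Python 3.11.15 (pandas 2.3.3, numpy 2.4.6, SciPy 1.17.1), and figures were drawn with matplotlib 3.10.9.

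The members, the 38 gene lists and the tests were chosen with earlier results of these data known. Named genes are PRM1 and PRM2, the 10 largest rises and 10 largest falls of protein-coding genes and the 5 and 5 of other genes among called genes with a symbol and no overlap, the 2 largest called rises and falls of each list or, where none was called, its 2 most abundant members, and the 3 most abundant protein-coding genes. Genes named outside this rule are marked as such. Y-linked genes and the X inactivation RNA are not named. Alternatives were other pseudocounts, filters and scalings, a fit over all 9 libraries, a replicate block, plain limma, each library left out, adjusted p alone, and a test of each gene on its own RPKM values, which is what the study's methods describe. Same-numbered libraries did not deviate together (correlations of -0.02, 0.09 and -0.08), so the numbers were not taken to pair them. The libraries of hPRM1 enter only the fit over all 9, and DNA methylation was not analysed here. Some sequences of small RNAs are not reported here.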

Additional observations from a re-analysis of the deposited data

How the results depend on the processing

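Against 179 genes higher and 180 lower, the counts were 132 and 172 with a pseudocount of 0.1, 152 and 101 with 5, 72 and 17 with no filter (20888 genes tested) and 123 and 44 with a minimum of 10 RPKM (7106 tested). They were 216 and 81 after median-of-ratios rescaling, 342 and 70 after quantile normalization, 507 and 1618 in the fit over all 9 libraries, 185 and 189 with plain limma, 1156 and 331 without hPRM2 replicate 1 after median-of-ratios rescaling, and 0 and 9 with the per-gene test of the methods. Leaving out 1 library gave 10 to 810 higher and 2 to 1619 lower, and each of the 6 libraries moved a count by over 1.5 times. The counts were 810 and 1619 without hPRM2 replicate 1, 17 and 10 without replicate 2, 40 and 44 without replicate 3, and 14 and 4, 35 and 6, and 10 and 2 without empty vector replicates 1, 2 and 3. The fold threshold changed no count. Of the calls, 72.7% were higher after median-of-ratios rescaling and 83.0% after quantile normalization, beside 49.9%.

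With the replicate number as a block, 49 genes were higher and 8 lower, but the numbers do not pair the libraries.

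The median over all tested genes, a log2 fold change of -0.72, was -0.99 and -0.41 with pseudocounts of 0.1 and 5, -0.41 with no filter, -0.26 and -0.16 after median-of-ratios rescaling and quantile normalization, and -0.11 with median-of-ratios rescaling and without hPRM2 replicate 1. As shares of summed RPKM, the differences of 4 classes reversed, to -0.0496 percentage points for antisense, -1.45 for long non-coding, -0.153 for pseudogenes and -0.730 for snRNA genes. Of 48 named called genes none changed direction in any setting run. All 48 were also called without hPRM2 replicate 1 and over all 9 libraries, but 5 to 16 without another single library. Of 607 recomputed list medians, 501 moved by less than 1 SD. The causes were not tested. Zeros in hPRM2, whose libraries had 1270000 to 2650000 reads on genes, limit the falls of low genes.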

Other observations

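Some of the strongest differences belonged to genes that have an identifier but no symbol, which the naming rule leaves out, and these were chosen after their values were seen. ENSG00000277694, a miscellaneous small RNA, had 2268, 2406 and 7887 RPKM in the empty vector and was listed at 0 in all 3 hPRM2 libraries, the largest fall in the table (limma adjusted p = 0.000413).

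ENSG00000279691, an entry that awaits experimental checking, was listed at 0 in all 3 empty vector libraries and had 1182, 4329 and 1882 RPKM in hPRM2 (limma adjusted p = 0.000413).

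ENSG00000274367, a lincRNA gene, was listed at 0 in the empty vector and had 230.3, 527 and 339 RPKM in hPRM2 (limma adjusted p = 0.000954).

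Among 7SL-derived copies, RN7SL230P and RN7SL220P, also chosen after their values were seen, were listed at 0 in every empty vector library. RN7SL230P had 363, 87.2 and 173 RPKM in hPRM2 (limma adjusted p = 0.00558). RN7SL220P had 507, 91.8 and 84.8 RPKM (adjusted p = 0.0115). Unlike RN7SL2, both were highest in hPRM2 replicate 1, and reads of such copies may come from the 7SL genes themselves.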
